A study of Mus musculus with 10 samples.

Results

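Colonic CD11c+ cells were compared with splenic MHCII+ cells across all genes. Both populations came from wild-type C57BL/6 mice aged 8 weeks and were profiled by sequencing of polyadenylated RNA from about 20000 to 50000 cells per library. The comparison took the 2 libraries titled CD11cSP and the 2 titled MHCSp, 4 of the 10 libraries in the series. The other 6 are colonic MHCII+ cells, colonic CD11b+ cells and colonic CD11b+CD11c+ cells, 2 libraries each. The populations were read from abbreviated titles and the series design text, and the organ of either group is known only from them. No genotype, reporter or treatment other than wild type is given for any group, and the sources used here do not give how cells were sorted beyond the named markers.

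The groups differ in more than the organ. The colonic cells were sorted on CD11c and the splenic cells on MHC class II. The titles CD11cSP and CD11bSP stand beside DP and read as single-positive and double-positive sorts. On that reading the colonic gate also leaves out CD11b+ cells, which bears on every myeloid gene below. The library numbers in the titles are 95 and 98 for the colonic libraries and 83 and 84 for the splenic ones. Organ, gate and library set therefore change together and cannot be told apart in this comparison. The colonic MHCII+ libraries, numbered 81 and 82, are the nearest to the splenic ones in number and gate. Their values are given beside the results that turn on this point. Whether the libraries of a group stem from separate mice is not labelled. The p-values therefore rest on the spread between libraries alone, part or all of which may be technical. In bulk RNA, fewer cells of a type and less RNA per cell cannot be told apart.

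Conventional dendritic cells sample antigen, carry it to lymph nodes and present it to T cells. They fall into cDC1, which depend on the transcription factors IRF8 and BATF3 and cross-present antigen from dead cells, and cDC2, which express SIRPα and depend in part on IRF4 and, in the spleen, on Notch2. In the intestine, dendritic cells carry the integrin CD103 (Itgae) and can make retinoic acid, and they are exposed to TGF-β, microbial products and dietary ligands of the aryl hydrocarbon receptor. MHC class II is also carried by B cells, macrophages and some monocytes, and CD11c by some macrophages and activated lymphocytes, so either gate can hold cells other than dendritic cells.

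Estimated counts totalled 16366962 and 24817329 in the colonic libraries and 32313793 and 41769042 in the splenic ones. Levels are CPM, counts scaled to a common library size after TMM scaling, given as colonic libraries 1 and 2 against splenic libraries 1 and 2. Of 14628 genes tested with edgeR's quasi-likelihood test, 8027 (54.9%) passed a Benjamini-Hochberg adjusted p of 0.05, here called. They comprised 4061 genes (27.8%) higher and 3966 (27.1%) lower in the colonic cells, and the median log2 fold change over all genes was -0.01. Called genes with at least a 2-fold difference numbered 2661 higher and 2044 lower, and 853 and 249 differed by at least 16-fold. Because most genes were called, each count in a gene list below is read against 27.8% higher and 27.1% lower. The balance of directions depended on the scale: with limma on log2(TPM + 1), 32.2% of calls were higher in place of 50.6%, as the median of all genes moved to -0.27, and with TPM scaled to equal medians 60.6% were higher, with a median of 0.10. Calls of small differences are tied to that choice, as are some near 2-fold. Some fits below leave out 1 library, so the other library of its group stands alone. Their p-values and counts then rest on the spread within the other group only. They show dependence on that library and give no stronger support. Among genes named below as called, the calls of Cadm1, Ccl5, Ccnb2, Ccr9, Cd14, Cd74, Cxcl2, Des, Gzma, Il10, Il1b, Kit, Mgl2, Mmp13, Pcna, Tap1, Tnfaip3, Xcr1, Zbtb46, the class II chains and the named mitochondrially encoded genes ended with limma on log2(TPM + 1). Those of B2m, Ccl5, Cd74, Ctss, Cxcl2, Des, Egr1, Gzma, Il10, Il1b, Irf4, Kit, Mgl2, Mmp13, Tnfaip3, Zbtb46 and Zeb2 ended with limma on TPM scaled to equal medians. Those of Cd74, Cxcl2, Irf4, Kit, Mgl2, Tap1, Zbtb46 and Zeb2 ended in edgeR with effective length as an offset, and those of Cadm1, Ccr9, Cd74, Kit, Tap1, Xcr1 and mt-Cytb with all 10 libraries in the fit.

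**Figure D1:**
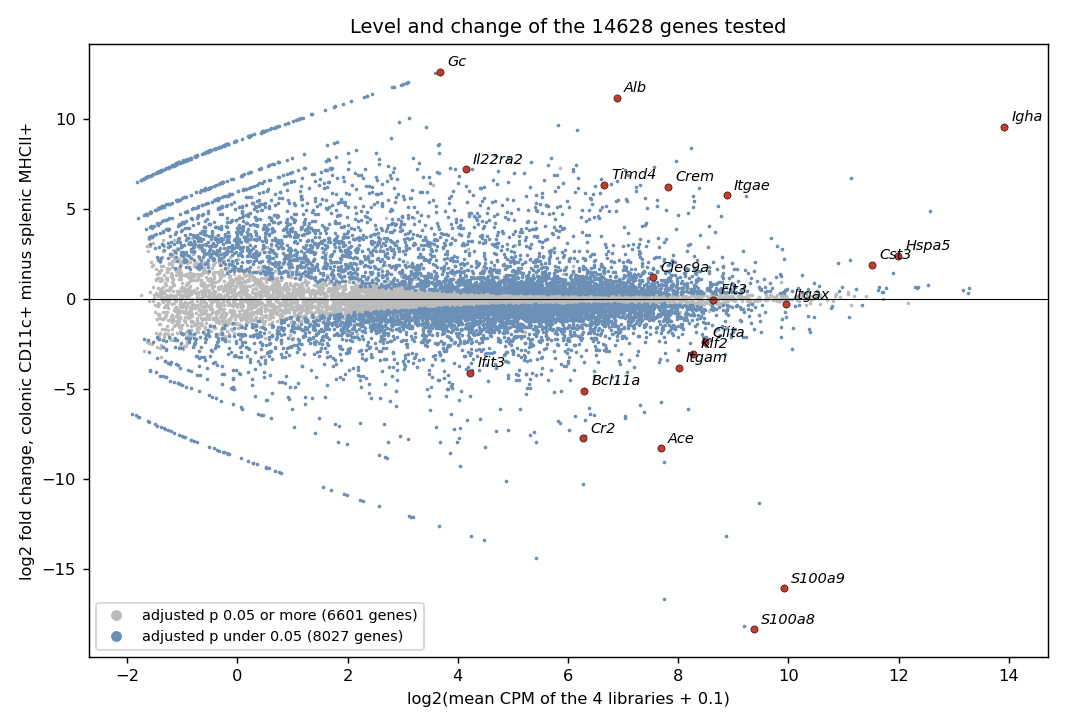
Level (x axis, log2 of the mean CPM of the 4 libraries plus 0.1) and log2 fold change (y axis, colonic CD11c+ minus splenic MHCII+) of each of the 14628 genes tested, with 8027 called genes in blue, the others in grey and a selection of genes named in the text in red. The slanted bands at the upper and lower edge are genes with no or few counts in one group, whose fitted fold change is set by the prior count.

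The genes behind the gates came first. Itgax, which encodes CD11c, was at 817 and 968 CPM against 1163 and 1026 and was not called (log2 fold change -0.28, adjusted p = 0.11), so CD11c transcript was no higher in the CD11c+ sort than in the splenic cells. Itgam, which encodes CD11b, was at 26.9 and 41.5 CPM against 432 and 528 (log2 fold change -3.80 ± 0.25 (SE), adjusted p = 0.00057). Both colonic libraries were more than 10-fold below both splenic ones, and the series lists these CD11c+ cells apart from its CD11b+CD11c+ cells. A sort that leaves out CD11b+ cells would fix a low Itgam in advance, so its p-value describes the gate. The class II chain genes H2-Aa, H2-Ab1 and H2-Eb1 were higher in the colonic cells. H2-Ab1, the β chain of I-A, was at 6909.7 and 8176 CPM against 4721 and 4023 (log2 fold change 0.80 ± 0.14 (SE), adjusted p = 0.0084), H2-Aa at 5807 and 6889 CPM against 4125 and 3956 (log2 fold change 0.67, adjusted p = 0.0097) and H2-Eb1 at 5649 and 6643 CPM against 4115 and 3689 (log2 fold change 0.67, adjusted p = 0.011). Cd74, the invariant chain that escorts class II molecules, was at 9455 and 12010.1 CPM against 8100.1 and 7384 (log2 fold change 0.48, adjusted p = 0.048). Its call ended without splenic library 1, at 0.55 (adjusted p = 0.088), without splenic library 2, at 0.42 (adjusted p = 0.16), and without colonic library 2, at 0.30 (adjusted p = 0.054). The class II chain calls ended with limma on log2(TPM + 1), where the value was 0.29 (adjusted p = 0.18) for H2-Aa, 0.43 (adjusted p = 0.089) for H2-Ab1 and 0.29 (adjusted p = 0.17) for H2-Eb1. Ptprc, the leukocyte antigen CD45, was at 1607 and 1311 CPM against 2907 and 2925 (log2 fold change -0.99, adjusted p = 0.0032), lower in both colonic libraries.

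Ciita, the master regulator that switches on class II genes, ran opposite to its targets. It was at 104 and 123 CPM against 630.3 and 578, 5.27-fold lower in the colonic cells (log2 fold change -2.40 ± 0.12 (SE), adjusted p = 0.00035), while H2-Aa, H2-Ab1 and H2-Eb1 were higher. Rfx5, a DNA-binding partner of CIITA at class II promoters, was at 23.3 and 24.5 CPM against 70.9 and 68.4 (log2 fold change -1.53, adjusted p = 0.00052), and March1, the ubiquitin ligase that removes class II from the surface of dendritic and B cells, was at 28.3 and 32.7 CPM against 93.7 and 96.8 (log2 fold change -1.63, adjusted p = 0.00062). In the colonic MHCII+ libraries Ciita was lower still, at 44.7 and 54.3 CPM, so the low level was not limited to the libraries numbered 95 and 98. H2-DMb1, a chain of the peptide editor DM, was at 584 and 651 CPM against 296 and 269 (log2 fold change 1.14, adjusted p = 0.0011), and H2-Oa, a chain of its inhibitor DO, which is typical of B cells, was at 76.2 and 87.9 CPM against 162 and 167 (log2 fold change -0.99, adjusted p = 0.0017). H2-DMb1 and H2-Oa moved in opposite directions. The class II presentation list had 6 higher and 7 lower of 15 tested members (median log2 fold change -0.31). Ciita and H2-Oa are also expressed by B cells, whose markers were lower in the colonic libraries, as given below, and the part of those cells in these values was not tested.

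Both groups held conventional dendritic cell transcripts, in unequal kinds. Flt3, the receptor for the growth factor that drives dendritic cell development, was at 379 and 399 CPM against 416 and 390.1, and the groups overlapped (log2 fold change -0.04, adjusted p = 0.73). Zbtb46, a transcription factor of conventional dendritic cells, was at 67.9 and 70.3 CPM against 105 and 95.1 (log2 fold change -0.52, adjusted p = 0.0081), and Dpp4, a surface peptidase abundant on cDC1, was at 185 and 180.0 CPM against 295 and 273 (log2 fold change -0.62, adjusted p = 0.0034). The Zbtb46 call ended without splenic library 1, at -0.45 (adjusted p = 0.060), and its sign turned with limma on TPM scaled to equal medians, at 0.10 (adjusted p = 0.78). Kmo, an enzyme of tryptophan breakdown, was at 62.8 and 63.6 CPM against 164 and 154 (log2 fold change -1.32, adjusted p = 0.00050), lower in both colonic libraries. Bcl11a, a regulator of lymphoid, B cell and plasmacytoid dendritic cell development, showed the widest gap on this list, at 4.35 and 4.45 CPM against 163 and 141 (log2 fold change -5.10 ± 0.13 (SE), adjusted p = 0.00020). Of the 7 pan-dendritic genes, 5 were lower and 0 higher (median -0.56), and 3 were lower without splenic library 1.

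The cDC1 list leaned the other way, with 8 of 13 members higher and 1 lower (median 0.71). Clec9a, the receptor for actin exposed on dead cells, was at 255 and 266 CPM against 129 and 99.6 (log2 fold change 1.20 ± 0.14 (SE), adjusted p = 0.0024). Rab7b, a small GTPase of endosome traffic, was at 212 and 239.6 CPM against 33.8 and 25.7 (log2 fold change 2.94 ± 0.16 (SE), adjusted p = 0.00041), and Clnk, an adaptor protein, at 28.7 and 19.2 CPM against 3.62 and 4.15 (log2 fold change 2.64, adjusted p = 0.0013). In these genes both colonic libraries stood above both splenic ones. Xcr1, the chemokine receptor that defines cDC1, differed little, at 67.2 and 69.3 CPM against 51.4 and 48.1 (log2 fold change 0.47, adjusted p = 0.011). Without splenic library 1 or 2 its call ended, at 0.51 (adjusted p = 0.053) and 0.42 (adjusted p = 0.084). Cadm1, an adhesion molecule, was at 64.6 and 69.4 CPM against 44.96 and 37.5 (log2 fold change 0.71, adjusted p = 0.0078), and Naaa, a lysosomal amidase, at 548 and 532 CPM against 313 and 277 (log2 fold change 0.89, adjusted p = 0.0018). Batf3 was the called member that was lower, at 22.9 and 28.7 CPM against 47.9 and 47.5 (log2 fold change -0.87, adjusted p = 0.0062), and Irf8, at 446 and 467 CPM against 475 and 406, overlapped between the groups (log2 fold change 0.07, adjusted p = 0.62). The summed level of the list was 4758 and 5175 CPM against 3657 and 3032 CPM, and in the other 6 libraries it ran from 721 to 1973 CPM. For the pan-dendritic list the sums were 1030.2 and 1122 CPM against 1619 and 1547 CPM, and the CD11b+CD11c+ libraries, at 1060.5 and 1013 CPM, overlapped the colonic CD11c+ pair. The 2 groups were chosen for comparison as the richest in dendritic cell transcripts, so these sums restate that choice.

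Genes of cDC2 were mostly lower in the colonic CD11c+ cells, with 8 of 10 lower and 1 higher (median -2.01). The list summed to 246 and 397 CPM against 1234 and 1154 CPM. Its sums were 904 and 800 CPM in colonic MHCII+, 1778 and 2012 CPM in CD11b+CD11c+ and 1385 and 1494 CPM in CD11b+ libraries. The CD11b+CD11c+ and CD11b+ sums were above the splenic ones, so the low level was not shared by all colonic groups. Sirpa, the inhibitory receptor that marks cDC2 and other myeloid cells, was at 16.2 and 48.99 CPM against 359.9 and 374 (log2 fold change -3.49 ± 0.53 (SE), adjusted p = 0.0053). Its value ran from -4.49 to -2.87 when each library was left out in turn, with the ends set by the colonic libraries. Irf4 was at 40.8 and 49.5 CPM against 101 and 68.7 (log2 fold change -0.90, adjusted p = 0.020), a call that ended without splenic library 1, at -0.60 (adjusted p = 0.059). Cd209a, a lectin of cDC2 and monocyte-derived cells, was at 6.87 and 10.3 CPM against 113 and 114 (log2 fold change -3.72, adjusted p = 0.00042), and Zeb2, a repressor needed for cDC2 and plasmacytoid cells, at 34.3 and 56.7 CPM against 175 and 177 (log2 fold change -1.94, adjusted p = 0.0031). Clec4a4, the inhibitory lectin DCIR2 of splenic cDC2, was at 2.05 and 1.73 CPM against 45.3 and 43.7 (log2 fold change -4.53 ± 0.15 (SE), adjusted p = 0.00022), and Esam, an adhesion molecule of the Notch2-dependent splenic cDC2, was at 2.45 and 2.41 CPM against 20.1 and 22.5 (log2 fold change -3.12, adjusted p = 0.00041). Both were at most 2.5 CPM in each colonic library. Mgl2, the galactose lectin CD301b, was the member that was higher, at 6.40 and 27.99 CPM against 3.79 and 3.70 (log2 fold change 2.20, adjusted p = 0.046), and rested on colonic library 2: its call ended without that library, at 0.78 (adjusted p = 0.067), and without splenic library 1 or 2, at 2.21 (adjusted p = 0.14) and 2.18 (adjusted p = 0.14).

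Among genes of spleen-resident dendritic cells, 4 of 7 were lower and 1 higher (median -1.99). Cd8a, which marks resident cDC1 as well as T cells, was at 95.6 and 26.8 CPM against 87.6 and 77.4 and overlapped (log2 fold change -0.41, adjusted p = 0.56), with colonic library 1 above and library 2 below the splenic ones. Dtx1, a Notch target, was at 24.1 and 5.13 CPM against 138 and 134 (log2 fold change -3.18, adjusted p = 0.014), with leave-one-out values of -4.70 to -2.49. The plasmacytoid dendritic cell list had 10 members tested, of which 7 were lower and 2 higher (median -1.45), or 1 higher without splenic library 2. Siglech was at 5.29 and 12.1 CPM against 45.2 and 42.5 (log2 fold change -2.34, adjusted p = 0.0068) and without colonic library 2 at -3.04. Spib, a transcription factor shared with B cells, was at 2.33 and 4.76 CPM against 68.6 and 82.1 (log2 fold change -4.43, adjusted p = 0.00087), and Tcf4, the factor that defines the lineage but is expressed more widely, was at 59.7 and 75.6 CPM against 77.1 and 76.8 (log2 fold change -0.17, adjusted p = 0.32). Klk1, a kallikrein also made by colonic epithelium, was higher, at 45.7 and 51.3 CPM against 9.14 and 8.47 (log2 fold change 2.47, adjusted p = 0.00038). In the colonic MHCII+ libraries, where epithelial transcripts were more abundant, Klk1 stood at 567 and 453 CPM.

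**Figure D2:**
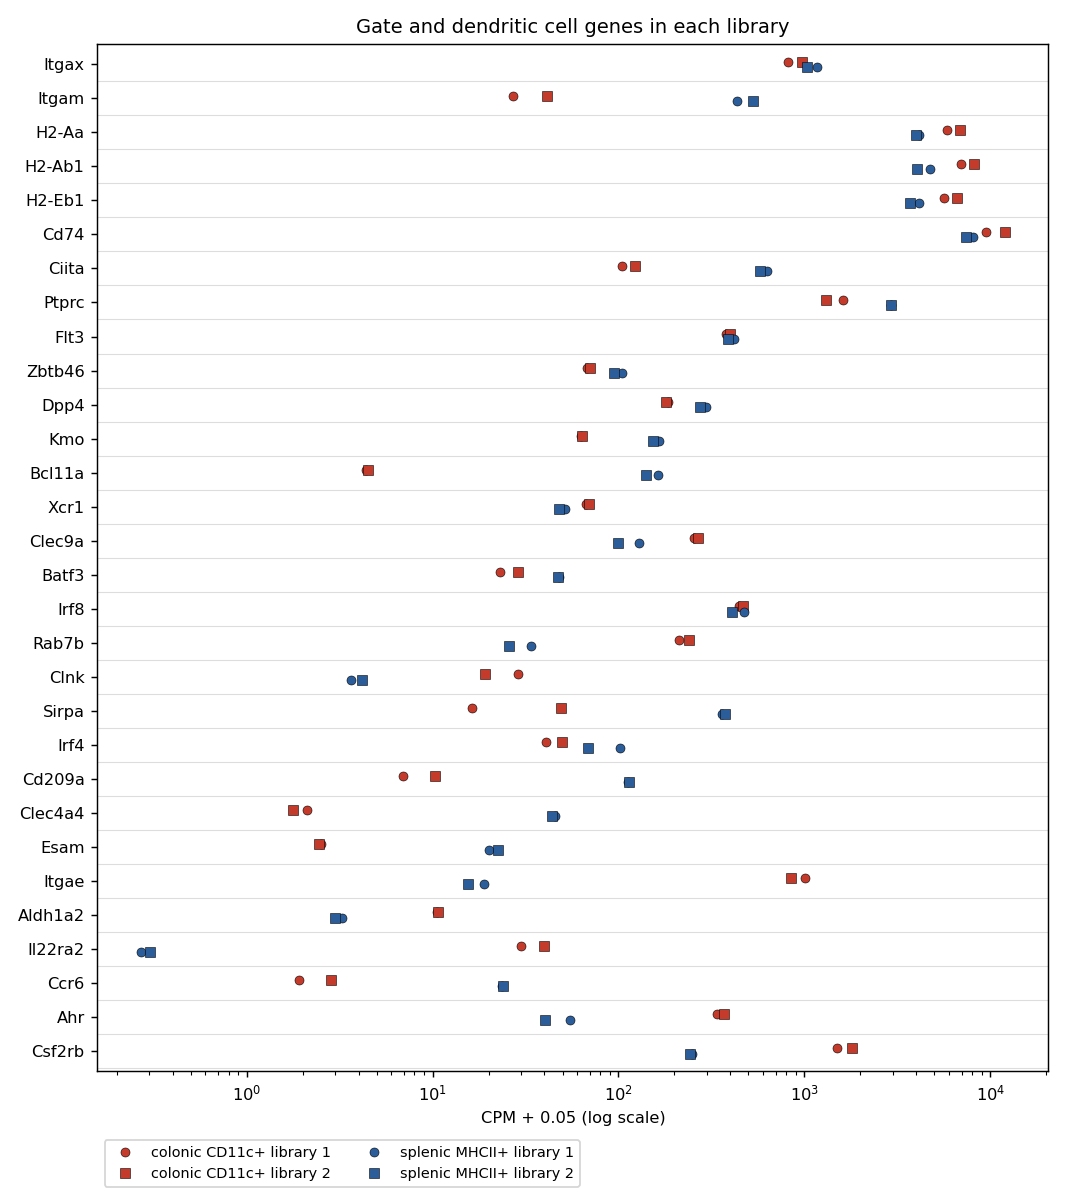
CPM plus 0.05 (log axis) of gate and dendritic cell genes in each of the 4 libraries, red for colonic CD11c+ and blue for splenic MHCII+, circles for library 1 and squares for library 2. Itgax and Flt3 lie close together in the 4 libraries, Itgae and Il22ra2 lie far to the right in the colonic ones, and Itgam, Bcl11a, Clec4a4 and Esam far to the left.

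The genes listed for the intestinal dendritic cell state gave some of the widest gaps between the groups. NK and innate lymphoid cell genes were also higher in the colonic libraries, summing to 1754 and 621 CPM against 232 and 293 CPM. The part of those cells in the values of this list was not tested. Itgae, the αE chain of CD103 that binds E-cadherin on epithelium, was at 1002 and 849 CPM against 18.8 and 15.5, 54.5-fold higher in the colonic cells (log2 fold change 5.77 ± 0.17 (SE), adjusted p = 0.00020). Il22ra2, the soluble decoy receptor that neutralises interleukin 22, was at 29.8 and 39.9 CPM against 0.219 and 0.254 (log2 fold change 7.20 ± 0.27 (SE), adjusted p = 0.00025). Both stood apart in every library. The colonic MHCII+ libraries held Itgae at 142 and 169 CPM and Il22ra2 at 10.4 and 8.79 CPM, also above the splenic libraries. CD11c+ cells exceeded these by log2 differences of 2.57 (adjusted p = 0.00057) for Itgae and 1.85 (adjusted p = 0.0026) for Il22ra2 in the fit of colonic CD11c+ against colonic MHCII+, in which 30.7% of 14545 genes were called.

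Aldh1a2, the enzyme that makes retinoic acid in dendritic cells, was at 10.5 and 10.6 CPM against 3.22 and 2.93 (log2 fold change 1.79, adjusted p = 0.0020), with both colonic libraries above the splenic ones. Itgb8, the integrin chain with which dendritic cells activate TGF-β, was low throughout, at 0.395 and 0.865 CPM against 0.219 and 0.0282 (log2 fold change 2.20, adjusted p = 0.10). Ccr9, the gut-homing receptor, was at 22.5 and 20.8 CPM against 13.9 and 12.8 (log2 fold change 0.71, adjusted p = 0.0091), a call that ended without splenic library 2, at 0.65 (adjusted p = 0.066). Gpr15, a colon-homing receptor of lymphocytes, was at 6.72 and 3.64 CPM against 0.635 and 0.677 (log2 fold change 2.998, adjusted p = 0.0040). Ccr6, the receptor for CCL20, ran the other way, at 1.86 and 2.78 CPM against 23.7 and 23.9 (log2 fold change -3.37, adjusted p = 0.00064). Of 11 members of this list, 6 were higher and 3 lower (median 0.71), and 1 was lower without splenic library 2.

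In the retinoic acid and TGF-β pathways, 6 of 18 genes were higher and 4 lower (median 0.12). The retinoic acid receptors Rara and Rarg were both lower. Rarg was at 6.16 and 5.44 CPM against 44.5 and 44.1 (log2 fold change -2.92 ± 0.13 (SE), adjusted p = 0.00031) and Rara at 32.4 and 41.5 CPM against 102 and 118 (log2 fold change -1.56, adjusted p = 0.0016). Tgfb1, the TGF-β1 ligand, was at 144 and 170.4 CPM against 273 and 305 (log2 fold change -0.86, adjusted p = 0.0039). Skil, which encodes SnoN, a feedback inhibitor of SMAD signalling, was at 328 and 345 CPM against 75.6 and 58.5 (log2 fold change 2.34, adjusted p = 0.00049), the widest rise on this list among members with at least 20 CPM.

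The aryl hydrocarbon receptor gene Ahr was at 338 and 367 CPM against 54.9 and 40.4, 7.47-fold higher in the colonic cells (log2 fold change 2.90 ± 0.17 (SE), adjusted p = 0.00046). Of the tryptophan and Ahr list, 4 of 7 tested members were higher and 3 lower (median 0.96). Ido1, which opens the kynurenine route, stayed low, at 3.24 and 4.02 CPM against 0.482 and 0.339 (log2 fold change 3.13, adjusted p = 0.0028). Kynu, a later enzyme of the route, was at 16.1 and 22.7 CPM against 62.8 and 63.1 (log2 fold change -1.69, adjusted p = 0.0019), and Il4i1, an amino acid oxidase, at 13.6 and 18.8 CPM against 113 and 119 (log2 fold change -2.83, adjusted p = 0.00052). Kynu, Il4i1 and Kmo were thus all lower in the colonic cells.

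The Notch pathway leaned lower, with 6 of 11 members lower and 1 higher (median -0.74). The receptor gene Notch2 was at 209.5 and 252 CPM against 484 and 479 (log2 fold change -1.05, adjusted p = 0.0019), and the ligand gene Jag1 at 5.69 and 7.97 CPM against 19.98 and 20.9 (log2 fold change -1.58, adjusted p = 0.0033). Rbpj, the DNA-binding partner of the Notch intracellular domain, was higher, at 238 and 243 CPM against 97.4 and 81.9 (log2 fold change 1.43, adjusted p = 0.00078), and the target Hes1, at 39.8 and 49.9 CPM against 49.6 and 45.1, overlapped (log2 fold change -0.07, adjusted p = 0.72). Low Esam, Clec4a4 and Dtx1, given above, lie beside these values.

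Among lineage transcription factors, 7 of 30 were higher and 14 lower (median -0.22), with 9 lower without splenic library 1. Nfil3, which acts early in cDC1 and innate lymphoid cell development, was at 208 and 234 CPM against 66.6 and 32.7 (log2 fold change 2.17, adjusted p = 0.0058) and at 2.76 without splenic library 1. Prdm1, which encodes BLIMP1 of plasma cells, T cells and some dendritic cells, was at 26.8 and 57.8 CPM against 8.74 and 10.9 (log2 fold change 2.12, adjusted p = 0.0093) and at 1.46 without colonic library 2. Runx3, needed for TGF-β responses of mucosal leukocytes, was at 131 and 162 CPM against 76.4 and 64.9 (log2 fold change 1.07, adjusted p = 0.0036). Crem, a cAMP-responsive factor outside the lists, was at 487 and 406 CPM against 5.67 and 6.38 (log2 fold change 6.23 ± 0.15 (SE), adjusted p = 0.00020), and Lmna, the nuclear lamin A/C gene, at 557 and 759.8 CPM against 9.18 and 9.57 (log2 fold change 6.15 ± 0.20 (SE), adjusted p = 0.00021). Crem and Lmna were each more than 50-fold higher in both colonic libraries, and the colonic MHCII+ libraries held 232 and 249 CPM of Crem and 795 and 825 CPM of Lmna.

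Growth factor receptors differed by family. Csf2rb, the signalling chain shared by the receptors for GM-CSF, interleukin 3 and interleukin 5, was at 1493 and 1791 CPM against 249.6 and 242, 6.74-fold higher in the colonic cells (log2 fold change 2.75 ± 0.12 (SE), adjusted p = 0.00031). Its partner for GM-CSF, Csf2ra, was at 293 and 379 CPM against 415 and 357 and overlapped (log2 fold change -0.19, adjusted p = 0.35). Csf3r, the G-CSF receptor of neutrophils, was at 2.84 and 14.3 CPM against 445 and 699.7 (log2 fold change -6.10, adjusted p = 0.0036), with leave-one-out values of -7.64 to -5.29. Il10ra was at 83.9 and 109.6 CPM against 358 and 344 (log2 fold change -1.85, adjusted p = 0.00087). The interferon receptor chains Ifnar1, at 237 and 246 CPM against 109 and 105 (log2 fold change 1.19, adjusted p = 0.00056), and Ifngr1, at 1382 and 1038 CPM against 534 and 529 (log2 fold change 1.20, adjusted p = 0.0032), were both higher in the colonic cells. The list had 6 higher and 3 lower of 14 (median 0.12). Without splenic library 2, 3 were higher, and without colonic library 2, 5 were lower. Il1r2, the decoy receptor that takes up interleukin 1 and stands on no list, was at 698 and 937 CPM against 27.3 and 18.8 (log2 fold change 5.16 ± 0.27 (SE), adjusted p = 0.00038).

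Transcripts of dendritic cell maturation did not move as a block. Of 18 such genes, 6 were higher, 4 lower and 8 not called (median -0.16), and 8 were lower without colonic library 2. Ccr7, the receptor that takes mature dendritic cells to lymph nodes, was at 59.9 and 87.2 CPM against 124 and 94.9 (log2 fold change -0.56, adjusted p = 0.087). Fscn1, the actin bundler of mature dendritic cell extensions, was at 8.49 and 13.2 CPM against 45.6 and 46.6 (log2 fold change -2.09 ± 0.23 (SE), adjusted p = 0.0019). The co-stimulatory ligands Cd80 and Cd86 were higher. Cd86 was at 245 and 296 CPM against 50.5 and 42.02, 5.90-fold higher (log2 fold change 2.56 ± 0.15 (SE), adjusted p = 0.00044), and Cd80 at 115 and 142 CPM against 28.96 and 29.4 (log2 fold change 2.15, adjusted p = 0.00048). Cd83, which stabilises surface class II and CD86, was at 441 and 601 CPM against 116 and 84.5 (log2 fold change 2.39, adjusted p = 0.0013). Cd40, the receptor for helper T cell signals, was at 16.4 and 29.6 CPM against 49.7 and 50.96 (log2 fold change -1.12, adjusted p = 0.024), and its call ended without splenic library 1 or 2, at -1.15 (adjusted p = 0.068) and -1.11 (adjusted p = 0.076).

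Of 15 co-signalling genes, 5 were higher and 6 lower (median 0.03). Havcr2, which encodes TIM-3, a receptor present on cDC1, was at 258 and 275 CPM against 84.5 and 71.1 (log2 fold change 1.79, adjusted p = 0.00052). Tnfsf4, the OX40 ligand, stayed low, at 2.41 and 1.79 CPM against 0.241 and 0.198 (log2 fold change 3.25, adjusted p = 0.0039). Timd4, the phosphatidylserine receptor TIM-4 that binds dying cells, was at 193 and 203 CPM against 2.89 and 1.98 (log2 fold change 6.35 ± 0.21 (SE), adjusted p = 0.00021), and the colonic MHCII+ libraries held 75.1 and 48.1 CPM. Timd4 belongs to the macrophage list. It was near equal in the 2 colonic libraries, unlike Csf1r, C1qa and Mrc1 given below, and its cell source was not tested.

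In the class I and cross-presentation list, 9 of 18 members were higher and 4 lower (median 0.26), with 5 higher and 2 lower without splenic library 1 and 0 lower without splenic library 2. H2-K1, a class I heavy chain, was at 1888 and 1547 CPM against 1891 and 1846 (log2 fold change -0.11, adjusted p = 0.49). B2m, the light chain, was at 1097 and 977 CPM against 1275 and 1346 (log2 fold change -0.32, adjusted p = 0.043), and Tap1, the peptide pump, at 384 and 397 CPM against 304 and 320.1 (log2 fold change 0.34, adjusted p = 0.020). The last pair changed by less than 1.3-fold. The call of B2m ended without splenic library 1, at -0.37 (adjusted p = 0.091), without splenic library 2, at -0.29 (adjusted p = 0.16), and without colonic library 2, at -0.25 (adjusted p = 0.089). That of Tap1 ended without splenic library 1, at 0.29 (adjusted p = 0.12), and without splenic library 2, at 0.37 (adjusted p = 0.072), and its sign turned with limma on log2(TPM + 1), at -0.02 (adjusted p = 0.88). Cybb, the oxidase chain that slows antigen breakdown in phagosomes, was at 42.9 and 143 CPM against 483 and 525 (log2 fold change -2.43, adjusted p = 0.019). Its call ended without splenic library 2, at -2.37, and its value was -1.78 and -3.55 without colonic library 1 and 2.

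Several chaperone genes of the endoplasmic reticulum were higher in the colonic cells. They come from the class I list and the joint list of heat shock and unfolded protein genes and are named for the size of their change, and Canx was picked after its value was seen, so they stand for no list of such chaperones. Hspa5, which encodes BiP, the main chaperone of the compartment, was at 5845 and 7783 CPM against 1435 and 1173, 5.28-fold higher (log2 fold change 2.40 ± 0.19 (SE), adjusted p = 0.00089). Hsp90b1, which encodes GRP94, was at 3253 and 4009 CPM against 837 and 803 (log2 fold change 2.16 ± 0.14 (SE), adjusted p = 0.00050). Calr, a lectin chaperone that loads class I molecules, was at 1581 and 1890.1 CPM against 721 and 692 (log2 fold change 1.31, adjusted p = 0.0012), Pdia3, its disulfide isomerase partner, at 1261 and 1372 CPM against 529 and 506 (log2 fold change 1.36, adjusted p = 0.00059) and Canx, the membrane-bound lectin chaperone calnexin, at 563 and 611 CPM against 300.4 and 309 (log2 fold change 0.96, adjusted p = 0.0012). In each of the 5 genes both colonic libraries were above both splenic ones. Hspa5 in colonic MHCII+ libraries was at 6353 and 6348 CPM and Hsp90b1 at 2601 and 2584 CPM, so the rise was also present in the libraries numbered 81 and 82. Plasma cells carry high levels of these chaperones, plasma cell markers moved the same way, as given below, and their part in these values was not tested.

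The regions before these 5 genes were read for the endoplasmic reticulum stress element, the sequence through which ATF6 and NF-Y act, because each of the 5 was higher. It was searched as CCAAT and CCACG separated by 9 bases, on both strands, in the 250 bases before the RefSeq start. Hspa5, Hsp90b1, Calr and Canx each held it, as did 37 of 32851 promoters in all (0.113%), and Pdia3 had no match in this window. The RefSeq stretches are shown 5′ to 3′ on the strand of the gene with the matches in capitals and 20 bases on either side, or fewer where the window ended. Hsp90b1 carried 2 matches on opposite strands.
Hspa5 (GRCm38.p6, chr2:34772005-34772063, plus strand): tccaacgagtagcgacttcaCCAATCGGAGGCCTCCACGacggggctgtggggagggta
Hsp90b1 (GRCm38.p6, chr10:86705513-86705676, minus strand): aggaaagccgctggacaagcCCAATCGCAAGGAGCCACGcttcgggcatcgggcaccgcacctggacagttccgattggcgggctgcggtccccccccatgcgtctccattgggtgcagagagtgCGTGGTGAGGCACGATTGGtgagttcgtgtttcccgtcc
Canx (GRCm38.p6, chr11:50325780-50325838, minus strand): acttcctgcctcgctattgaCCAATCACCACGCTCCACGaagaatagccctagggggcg
Calr (GRCm38.p6, chr8:84847055-84847113, minus strand): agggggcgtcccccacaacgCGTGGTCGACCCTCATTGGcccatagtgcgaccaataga

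Among cytosolic heat shock genes, Hspa1a and Hspa1b were lower. Hspa1a was at 287 and 346 CPM against 1241 and 1044 (log2 fold change -1.84, adjusted p = 0.00082) and Hspa1b at 316 and 386 CPM against 1647 and 1382 (log2 fold change -2.10, adjusted p = 0.00067). These 2 inducible Hsp70 genes are near-identical copies, so the division of reads between them is uncertain. Hsph1, an Hsp70 co-chaperone, was at 359.8 and 294 CPM against 278 and 145 (log2 fold change 0.64, adjusted p = 0.14), and the groups did not overlap. Of 11 members of the joint list, 5 were higher and 2 lower (median 0.42).

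Immediate early genes, which respond to activation and to handling of cells, were lower more often than higher in the colonic CD11c+ libraries. Of 18 members, 9 were lower and 1 higher (median -0.69). The list summed to 5303 and 6274 CPM against 11795 and 8572 CPM. In colonic MHCII+ libraries the sums, 10162 and 9303 CPM, lay within the splenic range. They were 10781 and 13557 CPM in CD11b+CD11c+ and 10158 and 10804 CPM in CD11b+ libraries. Fos was at 506 and 563 CPM against 1871 and 1381 (log2 fold change -1.59, adjusted p = 0.0018), and Jun, its partner in AP-1, at 199 and 226 CPM against 1109 and 775 (log2 fold change -2.13 ± 0.20 (SE), adjusted p = 0.0012). Egr1, at 241 and 326 CPM against 467 and 407, lost its call (log2 fold change -0.61, adjusted p = 0.032) without splenic library 1, at -0.51 (adjusted p = 0.12), and without splenic library 2, at -0.71 (adjusted p = 0.058). Klf2, a factor of lymphocyte quiescence and trafficking, was at 63.4 and 70.4 CPM against 644 and 460.2 (log2 fold change -3.03 ± 0.19 (SE), adjusted p = 0.00050). Nr4a2, an orphan nuclear receptor, was the member that was higher, at 413 and 389 CPM against 60.97 and 18.8 (log2 fold change 3.34, adjusted p = 0.0071). The splenic libraries differed about 3-fold in Nr4a2, and its value was 4.42 without splenic library 1 and 2.73 without library 2.

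Parts of the NF-κB pathway moved in both directions, with 5 of 12 higher and 3 lower (median 0.18). The count higher was 2 without splenic library 2, and the count lower 5 without colonic library 2. Nfkb1, the p50 precursor, was at 307 and 373 CPM against 611 and 566 (log2 fold change -0.78, adjusted p = 0.0056). Rel, at 204 and 279 CPM against 186 and 115 (log2 fold change 0.69, adjusted p = 0.083), and the inhibitor gene Nfkbia, at 279 and 392 CPM against 383 and 296 (log2 fold change -0.00, adjusted p = 0.99), were not called. Tnfaip3, the inhibitor A20, was at 976 and 657 CPM against 355 and 159 (log2 fold change 1.68, adjusted p = 0.023) and at 2.37 without splenic library 1. Nfkbie, another inhibitor, was at 170.0 and 233 CPM against 94.3 and 83.1 (log2 fold change 1.20, adjusted p = 0.0045).

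Interferon-stimulated genes were lower in the colonic cells, with 16 of 20 lower and 0 higher (median -1.499). Oasl2, a relative of the oligoadenylate synthetases, was at 2.49 and 4.45 CPM against 55.5 and 73.9 (log2 fold change -4.24 ± 0.33 (SE), adjusted p = 0.00080), and Ifit3, an antiviral gene, at 1.66 and 2.53 CPM against 31.97 and 38.3 (log2 fold change -4.08 ± 0.25 (SE), adjusted p = 0.00048). Oas1a, which senses double-stranded RNA, was at 6.76 and 8.77 CPM against 54.6 and 56.7 (log2 fold change -2.83, adjusted p = 0.00044), Ifit1, which binds viral RNA caps, at 0.948 and 1.61 CPM against 11.7 and 14.1 (log2 fold change -3.36, adjusted p = 0.0014) and Rsad2, the antiviral enzyme viperin, at 3.71 and 4.39 CPM against 15.01 and 19.1 (log2 fold change -2.07, adjusted p = 0.0017). In each of these genes both colonic libraries were below both splenic ones. The regulator gene Irf7, the factor that amplifies type I interferon, was at 40.4 and 33.9 CPM against 129.6 and 149 (log2 fold change -1.89, adjusted p = 0.00065). The colonic MHCII+ libraries were also low, at 5.35 and 2.56 CPM for Ifit3 and 11.4 and 10.1 CPM for Oasl2. The receptor chain genes Ifnar1 and Ifngr1, given above, ran the other way.

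The promoters of the 16 members called lower were read for the interferon-stimulated response element, to which the factors activated by type I interferon bind. It was searched as GAAA and GAAA separated by 2 bases, on both strands, in the 250 bases before the RefSeq start. The table held 11 of the 16 genes, and 5 of these 11 had a match, compared with 978 of 32851 promoters in all (2.98%). The stretches of 3 of them, Ifit3, Oas1a and Rsad2, are shown as above, with matches in capitals, and Ifit3 and Oas1a carried 2 matches each.
Ifit3 (GRCm38.p6, chr19:34583353-34583436, plus strand): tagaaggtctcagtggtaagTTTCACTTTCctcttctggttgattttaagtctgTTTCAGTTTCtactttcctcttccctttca
Oas1a (GRCm38.p6, chr5:120907526-120907565, minus strand): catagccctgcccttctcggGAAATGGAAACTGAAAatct
Rsad2 (GRCm38.p6, chr12:26456543-26456592, minus strand): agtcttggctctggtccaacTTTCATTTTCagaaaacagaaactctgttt

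Sensors of microbes were lower as a group in the CD11c+ cells, with 19 of 28 lower and 4 higher (median -1.35). The list summed to 1444 and 2159 CPM against 2723 and 2743 CPM. Its sums were 2560 and 2471 CPM in colonic MHCII+, 4937 and 6550 CPM in CD11b+CD11c+ and 4728 and 5410 CPM in CD11b+ libraries. The last pairs, CD11b+CD11c+ and CD11b+, were above the splenic sums. Tlr3, the double-stranded RNA receptor of cDC1, was at 58.9 and 58.3 CPM against 54.3 and 51.2 and was not called (log2 fold change 0.16, adjusted p = 0.18). Tlr4, the lipopolysaccharide receptor, was at 4.35 and 5.37 CPM against 13.8 and 17.5 (log2 fold change -1.68, adjusted p = 0.0033), Tlr9, the receptor for unmethylated DNA, at 19.2 and 35.8 CPM against 117 and 134 (log2 fold change -2.18, adjusted p = 0.0042) and Nod1, a sensor of bacterial wall peptide, at 12.3 and 8.53 CPM against 163 and 169 (log2 fold change -3.97 ± 0.20 (SE), adjusted p = 0.00035). Tlr1 was at 4.86 and 15.4 CPM against 113 and 123 (log2 fold change -3.55, adjusted p = 0.0052) and Tlr7, the single-stranded RNA receptor, at 3.75 and 18.2 CPM against 101 and 132 (log2 fold change -3.43, adjusted p = 0.014). Colonic library 2 held about 3 to 5 times as much of Tlr1 and Tlr7 as library 1, and leave-one-out values ran from -4.59 to -2.90 and from -4.95 to -2.65. The members that were higher included Nod2, the sensor of muramyl dipeptide, at 79.5 and 90.1 CPM against 23.8 and 23.8 (log2 fold change 1.85 ± 0.11 (SE), adjusted p = 0.00046), and Tlr12, which binds profilin and is found on cDC1, at 66.9 and 85.6 CPM against 32.8 and 29.7 (log2 fold change 1.30, adjusted p = 0.0024). Cd14, the lipopolysaccharide co-receptor of macrophages, was higher at 67.1 and 298 CPM against 22.9 and 21.4 (log2 fold change 3.06, adjusted p = 0.019). The Cd14 call ended without splenic library 1 or 2, at 3.10 and 3.01, and the value was 1.61 without colonic library 2. Without splenic library 1 or 2 the list had 2 members higher.

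C-type lectins were lower too in the CD11c+ cells, with 12 of 18 lower and 1 higher (median -2.01). The list summed to 356 and 616 CPM against 677 and 765 CPM. Its sums were 1228 and 1015 CPM in colonic MHCII+, 3613 and 4285 CPM in CD11b+CD11c+ and 2644 and 2854 CPM in CD11b+ libraries. In these other colonic groups the sum was above the splenic one. The lectin genes Clec4a3, at 0.869 and 4.32 CPM against 69.1 and 84.3 (log2 fold change -4.96, adjusted p = 0.0037), and Clec4a1, at 2.13 and 10.1 CPM against 81.5 and 89.6 (log2 fold change -3.84, adjusted p = 0.0086), showed large gaps, as did Cd209d, at 2.13 and 2.22 CPM against 21.6 and 21.98 (log2 fold change -3.31, adjusted p = 0.00035). Leave-one-out values were -6.45 to -4.11 for Clec4a3 and -5.32 to -3.04 for Clec4a1, set by the colonic libraries. Clec7a, the β-glucan receptor Dectin-1, at 109 and 178 CPM against 90.99 and 95.3 (log2 fold change 0.63, adjusted p = 0.074), and Clec4n, which encodes Dectin-2, at 4.39 and 29.5 CPM against 11.9 and 11.6 (log2 fold change 0.52, adjusted p = 0.61), were not called. Clec12a, an inhibitory receptor for uric acid crystals, was at 83.5 and 85.3 CPM against 128 and 148 (log2 fold change -0.70, adjusted p = 0.0047). Without colonic library 1 the list had 4 members higher.

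Cytokine genes were mixed, with 6 of 20 higher and 8 lower (median -0.25), and 3 higher without splenic library 1. Ltb, the lymphotoxin chain that B cells and lymphoid tissue inducer cells also make, was at 24.8 and 15.4 CPM against 248 and 299.9 (log2 fold change -3.75 ± 0.26 (SE), adjusted p = 0.00065). Il12b, the chain shared by interleukins 12 and 23, was at 7.35 and 15.01 CPM against 5.70 and 3.56 (log2 fold change 1.27, adjusted p = 0.055). Il1a, Il1b and Il10 were higher, with most of the signal in colonic library 2. Il1a was at 19.95 and 105 CPM against 1.69 and 1.10 (log2 fold change 5.48, adjusted p = 0.0072), Il1b at 572 and 1416 CPM against 303 and 368 (log2 fold change 1.58, adjusted p = 0.031) and Il10 at 5.18 and 64.9 CPM against 0.920 and 0.762 (log2 fold change 5.37, adjusted p = 0.022). Leave-one-out values ran from 3.83 to 6.25 for Il1a, 0.78 to 2.11 for Il1b and 2.62 to 6.29 for Il10. Without splenic library 1 or 2, the call of Il1b ended, at 1.44 (adjusted p = 0.11) and 1.72 (adjusted p = 0.080), as did that of Il10, at 5.51 (adjusted p = 0.081) and 5.25 (adjusted p = 0.087).

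Chemokine genes were higher, with 12 of 18 higher and 3 lower (median 2.86). Cxcl16, a membrane-bound ligand for CXCR6 on lymphocytes, was at 247 and 385 CPM against 38.8 and 28.95 (log2 fold change 3.24 ± 0.27 (SE), adjusted p = 0.00099). Xcl1, the ligand of XCR1, which NK and T cells make, was at 90.1 and 62.3 CPM against 4.47 and 6.04 (log2 fold change 3.88, adjusted p = 0.00060), and Ccl22, which attracts regulatory T cells through CCR4, at 7.27 and 11.7 CPM against 1.38 and 0.903 (log2 fold change 3.05, adjusted p = 0.0029). Cxcl9, an interferon-γ-induced ligand of CXCR3, was lower, at 18.3 and 14.95 CPM against 29.1 and 28.6 (log2 fold change -0.78, adjusted p = 0.0089). Several other rises differed widely between the colonic libraries. Cxcl1, a neutrophil attractant, was at 13.9 and 67.6 CPM against 0.570 and 1.69 (log2 fold change 5.21, adjusted p = 0.0099), with leave-one-out values of 3.66 to 6.16. Cxcl2 was at 28.05 and 277 CPM against 16.3 and 9.45 (log2 fold change 3.58, adjusted p = 0.042). Its call ended without splenic library 1 or 2, at 4.02 and 3.24, and its value was 1.13 without colonic library 2. Ccl5, made by T and NK cells as well as dendritic cells, was at 807 and 183 CPM against 68.1 and 88.5 (log2 fold change 2.68, adjusted p = 0.027). Its call ended without splenic library 1 or 2, at 2.49 and 2.88, and its value was 1.26 without colonic library 1.

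Receptors for movement through blood and lymphoid tissue were lower, with 11 of 20 lower and 4 higher (median -0.75). S1pr1, the receptor for exit into blood and lymph, was at 7.11 and 6.36 CPM against 54.5 and 59.3 (log2 fold change -3.06, adjusted p = 0.00030). Cxcr5, the receptor that leads B cells to follicles, was at 0.514 and 1.54 CPM against 25.02 and 31.04 (log2 fold change -4.85, adjusted p = 0.0014), with leave-one-out values of -5.75 to -4.14.

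**Figure D3:**
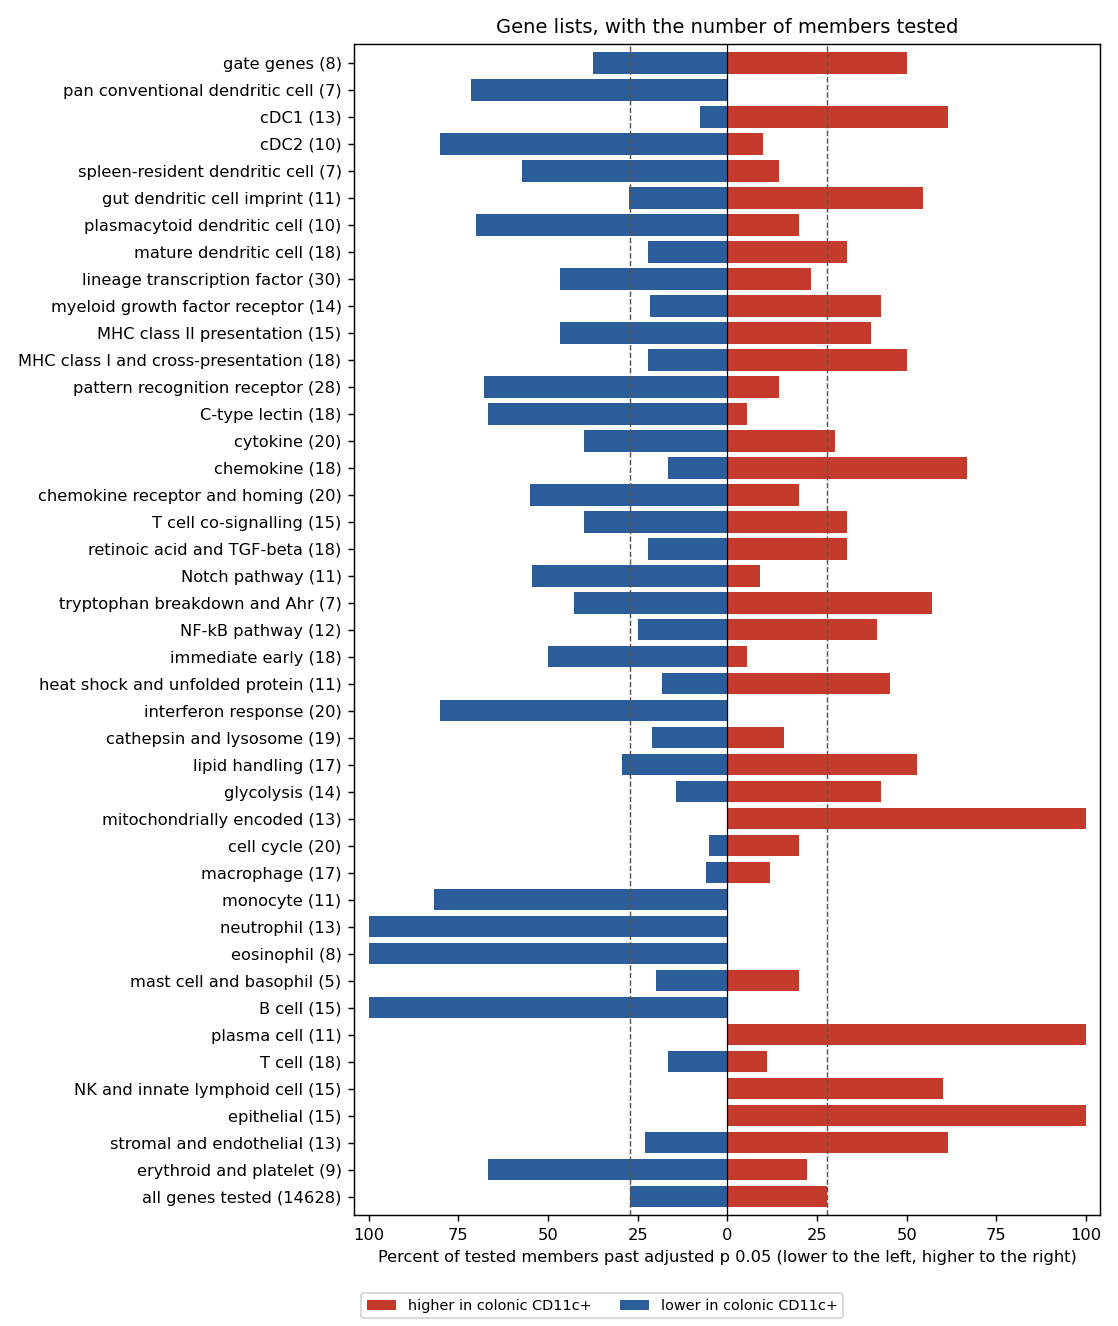
Percent of the tested members of each list that were called higher (red, to the right) or lower (blue, to the left) in colonic CD11c+ cells, with the number tested in parentheses. The dashed lines give the share over all genes, 27.8% higher and 27.1% lower, and the neutrophil, eosinophil and B cell lists lie wholly to the left and the plasma cell, epithelial and mitochondrially encoded lists wholly to the right.

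Several list counts moved by more than 1.5 times with limma on log2(TPM + 1). Members higher became 1 for class II presentation, 4 for class I, 1 for the NF-κB pathway, 2 for microbial sensors, 3 for cytokines and 3 for growth factor receptors. They became 3 for heat shock and unfolded protein genes, 2 for homing receptors, 5 for NK and innate lymphoid genes, 5 for stromal and endothelial genes and 0 for the cell cycle. Members lower became 9 for maturation genes, 9 for lysosomal genes, 5 for the NF-κB pathway, 5 for T cell genes, 4 for glycolysis and 4 for the cell cycle.

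Metabolic genes rose in parts. In the lipid list, 9 of 17 were higher and 5 lower (median 0.69). The rises included enzymes of cholesterol synthesis. Sqle, squalene epoxidase, was at 75.8 and 81.2 CPM against 14.8 and 15.04 (log2 fold change 2.41 ± 0.10 (SE), adjusted p = 0.00031), Idi1, an isomerase of the same route, at 85.96 and 80.00 CPM against 19.2 and 15.999 (log2 fold change 2.25, adjusted p = 0.00044) and Fdps, which makes farnesyl diphosphate, at 145 and 149 CPM against 31.3 and 34.7 (log2 fold change 2.17, adjusted p = 0.00031). In the colonic MHCII+ libraries Sqle was at 78.5 and 59.02 CPM and Fdps at 128 and 131 CPM, near the CD11c+ levels. Apoe and Abca1, which handle cholesterol in macrophages, were at 198 and 2251 CPM against 607 and 666 (log2 fold change 0.96, adjusted p = 0.46) and 21.7 and 134 CPM against 47.1 and 58.1 (log2 fold change 0.57, adjusted p = 0.57), and colonic library 2 was far above library 1 in both. Fabp5, a fatty acid carrier, was at 9.40 and 10.01 CPM against 17.1 and 20.9 (log2 fold change -0.96, adjusted p = 0.0076).

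Of 14 genes of glycolysis, 6 were higher and 2 lower (median 0.14), or 1 lower without splenic library 2. Pfkp, the platelet-type phosphofructokinase, was at 382 and 383 CPM against 90.5 and 89.8, 4.28-fold higher (log2 fold change 2.10 ± 0.08 (SE), adjusted p = 0.00025). Slc2a1, the glucose carrier GLUT1, was at 58.4 and 60.97 CPM against 31.9 and 29.9 (log2 fold change 0.96, adjusted p = 0.0016), Pgk1 at 364 and 347 CPM against 173 and 189.7 (log2 fold change 0.98, adjusted p = 0.0012) and Ldha, which makes lactate, at 493 and 492 CPM against 265 and 291 (log2 fold change 0.84, adjusted p = 0.0018). Hk2, the inducible hexokinase, was at 92.2 and 124 CPM against 91.6 and 97.4 (log2 fold change 0.21, adjusted p = 0.32).

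The mitochondrial genome's 13 protein genes were all called higher (median 0.56). The counts depended on the scale and on 1 library: 7 were called without splenic library 1, 6 with all 10 libraries in the fit and 0 with limma on log2(TPM + 1) or log2(TPM + 0.1) or against 1.5-fold. With limma on log2(TPM + 1) the value was 0.33 (adjusted p = 0.071) for mt-Nd1. In the main fit mt-Nd1 was at 1888 and 1838 CPM against 1109.6 and 1196 (log2 fold change 0.71, adjusted p = 0.0032), mt-Co1 at 12103 and 11799 CPM against 7518 and 8145 (log2 fold change 0.62, adjusted p = 0.0086) and mt-Cytb at 2897 and 2819.8 CPM against 1843 and 2071 (log2 fold change 0.56, adjusted p = 0.0094). A further pair, mt-Co3 at 3931 and 3845 CPM against 2301 and 2729 (log2 fold change 0.64, adjusted p = 0.0098) and mt-Atp8 at 250.2 and 286 CPM against 122 and 191 (log2 fold change 0.79, adjusted p = 0.036), lay in the same range, and the call of mt-Atp8 ended without splenic library 1, at 0.50 (adjusted p = 0.057). Mitochondrial share also moves with RNA quality and cell content, whose part was not tested.

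Cell cycle genes moved little, with 4 of 20 higher, 1 lower and 15 not called (median 0.15). The counts without 1 library in turn ranged over 1 to 6 higher, with the 6 without colonic library 1, and 5 were lower without colonic library 2. Mki67, the proliferation antigen, was at 396 and 463 CPM against 378 and 325 (log2 fold change 0.30, adjusted p = 0.091), Top2a at 209 and 226 CPM against 192 and 175 (log2 fold change 0.26, adjusted p = 0.062) and Cdk1 at 22.1 and 22.98 CPM against 16.9 and 18.5 (log2 fold change 0.36, adjusted p = 0.057). Pcna, the replication clamp, was at 348 and 334 CPM against 249 and 208 (log2 fold change 0.59, adjusted p = 0.0097). Ccnb2 was at 27.5 and 31.4 CPM against 20.5 and 20.5 (log2 fold change 0.54, adjusted p = 0.018), and its call ended without splenic library 1, splenic library 2 or colonic library 2, at 0.53 (adjusted p = 0.092), 0.53 (adjusted p = 0.091) and 0.43 (adjusted p = 0.050). Ccnd1, a cyclin of the first gap phase, was the member that was lower, at 25.05 and 29.2 CPM against 179 and 181 (log2 fold change -2.72 ± 0.11 (SE), adjusted p = 0.00029).

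Lysosomal genes were mostly uncalled, with 3 of 19 higher, 4 lower and 12 not called (median -0.23). Without colonic library 1, 6 were higher, without colonic library 2, 10 were lower, and without splenic library 1 or 2, 2 were lower. Cst3, cystatin C, an inhibitor of cathepsins abundant in cDC1, was the clearest rise, at 4686 and 4562 CPM against 1320.1 and 1164, 3.76-fold higher (log2 fold change 1.91 ± 0.11 (SE), adjusted p = 0.00042). The cathepsin gene Ctss, which trims the invariant chain, was at 381 and 606 CPM against 887 and 952 (log2 fold change -0.88, adjusted p = 0.026) and lost its call without splenic library 1 or 2, at -0.94 (adjusted p = 0.061) and -0.83 (adjusted p = 0.084). Ctsh was at 185 and 243 CPM against 411 and 401 (log2 fold change -0.91, adjusted p = 0.0061). Ctsb, at 252 and 505 CPM against 480.5 and 507 (log2 fold change -0.37, adjusted p = 0.38), and Cd68, a macrophage lysosomal protein, at 126 and 187 CPM against 189 and 206 (log2 fold change -0.32, adjusted p = 0.22), were not called, and both were higher in colonic library 2 than in library 1.

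Markers of other cells were among the largest differences. Neutrophil genes were near 0 in the colonic libraries, with all 13 members lower. The list summed to 6.91 and 22.5 CPM against 6235 and 8858 CPM. The median log2 fold change was -11.30, or -10.12 with genes at 0 in the colonic libraries set to a floor of 3 counts per library. S100a8 and S100a9, the calprotectin chains, were at 0 and 0 CPM against 1023 and 1635 and 0 and 0.0618 CPM against 1547 and 2317. S100a8 was at least 8746-fold lower. Ngp, Camp and Mmp8, all granule proteins, had no counts in the colonic libraries, so they were at least 7748-, 2814- and 564-fold lower. Ltf, lactoferrin, was at 0.553 and 0.556 CPM against 1259 and 1582 (log2 fold change -11.30, adjusted p = 0.00020), and Cxcr2, the receptor for CXCL1 and CXCL2, at 0.0395 and 0.0618 CPM against 40.6 and 76.9 (log2 fold change -10.12, adjusted p = 0.00048). In colonic MHCII+ libraries S100a9 stood at 63.8 and 32.5 CPM.

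B cell genes fell in all 15 members (median -5.41), with a summed level of 347 and 370.2 CPM against 3731 and 4002 CPM. Ms4a1, which encodes the B cell antigen CD20, was at 1.46 and 1.67 CPM against 124 and 153 (log2 fold change -6.47 ± 0.18 (SE), adjusted p = 0.00020). Cd79a, a chain of the B cell receptor that plasma cells keep, was at 26.7 and 35.95 CPM against 256 and 290.1 (log2 fold change -3.11, adjusted p = 0.00042). Cr2, the complement receptor CD21, was at 0.553 and 0.927 CPM against 159 and 149 (log2 fold change -7.74, adjusted p = 0.00020), Pax5, the factor of B cell identity, at 0.316 and 0.309 CPM against 50.4 and 51.6 (log2 fold change -7.32, adjusted p = 0.00020) and Fcer2a, the low-affinity IgE receptor CD23, at 0.948 and 0.988 CPM against 107 and 123 (log2 fold change -6.87, adjusted p = 0.00020). The splenic gate on MHC class II admits B cells, and the share of splenic RNA from them was not estimated.

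Monocyte genes were lower in 9 of 11 members and higher in 0 (median -1.85). Ace, a marker of patrolling monocytes, was at 1.03 and 1.67 CPM against 368 and 453 (log2 fold change -8.28 ± 0.26 (SE), adjusted p = 0.00021), and Ms4a4c at 2.77 and 2.97 CPM against 98.8 and 109 (log2 fold change -5.17, adjusted p = 0.00020). F13a1, a clotting factor of monocytes, was at 5.29 and 24.96 CPM against 169 and 172 (log2 fold change -3.51, adjusted p = 0.012), with leave-one-out values of -5.00 to -2.74. Chil3, a lectin of monocytes and neutrophils, was at 0.0395 and 0.185 CPM against 819 and 1058 (log2 fold change -13.17, adjusted p = 0.00020). Ly6c2, at 114 and 150.2 CPM against 120.0 and 146, overlapped between the groups (log2 fold change 0.00, adjusted p = 0.99). Eosinophil genes were lower in all 8 members (median -5.70, or -5.31 with groups at 0 set to the floor), summing to 14.7 and 20.7 CPM against 149 and 261 CPM. Ear2 was at 1.94 and 1.85 CPM against 63.5 and 83.4 (log2 fold change -5.26, adjusted p = 0.00027), Alox15 at 0.158 and 0.309 CPM against 21.9 and 43.1 (log2 fold change -7.18, adjusted p = 0.00082) and Siglecf at 1.501 and 1.61 CPM against 8.48 and 16.4 (log2 fold change -2.99, adjusted p = 0.0036). Ccr3, the eotaxin receptor, was at 0.435 and 0.124 CPM against 15.1 and 28.8 (log2 fold change -6.13, adjusted p = 0.0014) and at -7.39 without colonic library 1. Ear2 belongs to a family of near-identical genes, so its level is uncertain.

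The colonic libraries held transcripts of other cell types of their own. Plasma cell genes were higher in all 11 members (median 4.37) and summed to 41989 and 54979 CPM against 705 and 744 CPM. Igha, the constant region of immunoglobulin A, was at 26553 and 35022 CPM against 50.1 and 31.7 (log2 fold change 9.57 ± 0.38 (SE), adjusted p = 0.00028), and Jchain, the chain that joins its dimers, at 3990.2 and 4973 CPM against 44.96 and 40.97 (log2 fold change 6.72 ± 0.18 (SE), adjusted p = 0.00020). Sdc1, which encodes CD138, was at 49.8 and 70.9 CPM against 2.32 and 2.17 (log2 fold change 4.75, adjusted p = 0.00035), and Igkc, the κ light chain, at 10024 and 13504 CPM against 375 and 431 (log2 fold change 4.88, adjusted p = 0.00031). Free RNA from plasma cells and plasma cells in the gate cannot be told apart. The same holds for the epithelial and stromal transcripts given next. Leaving immunoglobulin genes out of the table gave 7997 calls among 14426 genes.

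Epithelial genes were higher in all 15 members (median 6.12, or 5.78 with groups at 0 set to the floor) and summed to 542 and 646 CPM against 23.9 and 30.4 CPM. Epcam was at 52.4 and 66.2 CPM against 5.26 and 4.60 (log2 fold change 3.60, adjusted p = 0.00035), Krt8, a keratin, at 122 and 166 CPM against 0.811 and 2.03 (log2 fold change 6.70, adjusted p = 0.00065), Muc2, the goblet cell mucin, at 102 and 119.6 CPM against 0.701 and 1.21 (log2 fold change 6.89, adjusted p = 0.00030) and Vil1, the brush border protein villin, at 17.9 and 22.7 CPM against 0.197 and 0.169 (log2 fold change 6.76, adjusted p = 0.00029). Without splenic library 2 the value of Krt8 was 7.47 (adjusted p = 0.0012). Colonic MHCII+ libraries held more, with summed levels of 6054 and 5694 CPM.

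Of 13 stromal and endothelial genes, 8 were higher and 3 lower (median 2.28). The collagen genes Col1a1, Col1a2 and Col3a1 were at 179 and 219 CPM against 9.84 and 41.3, 237 and 278 CPM against 10.6 and 51.4 and 724 and 794 CPM against 20.6 and 96.2 (adjusted p = 0.018, 0.021 and 0.012). Splenic library 2 held more than 4 times the collagen transcripts of library 1, and leave-one-out values ran from 2.27 to 4.35, 2.33 to 4.62 and 2.99 to 5.22. Pecam1, which encodes the endothelial antigen CD31, was lower, at 18.8 and 22.4 CPM against 104 and 96.4 (log2 fold change -2.27, adjusted p = 0.00041).

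T cell, cytotoxic and macrophage genes separated the 2 colonic libraries from each other. In the T cell list 2 of 18 were higher and 3 lower (median 0.22), and the counts depended on which colonic library was left out. The list summed to 1127 and 480 CPM against 716 and 813 CPM. Cd3e, a chain of the T cell receptor complex, was at 51.9 and 12.7 CPM against 15.1 and 22.6 (log2 fold change 0.80, adjusted p = 0.34), Cd3d at 48.04 and 13.6 CPM against 21.1 and 28.3 (log2 fold change 0.34, adjusted p = 0.64) and Lck, its proximal kinase, at 140.0 and 54.1 CPM against 76.5 and 81.4 (log2 fold change 0.31, adjusted p = 0.56). Colonic library 1 was highest and library 2 lowest in each. Cd5 was at 5.53 and 5.75 CPM against 38.8 and 37.9 (log2 fold change -2.75, adjusted p = 0.00031) and Cd8b1 at 3.99 and 3.58 CPM against 19.98 and 27.7 (log2 fold change -2.64, adjusted p = 0.0010), lower in both colonic libraries.

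NK and innate lymphoid cell genes were higher in 9 of 15 members and lower in 0 (median 0.94), or in 5 without splenic library 1. Gzmb, granzyme B, was at 421 and 102 CPM against 5.61 and 6.49 (log2 fold change 5.45, adjusted p = 0.0042), with leave-one-out values of 4.11 to 6.13. Gzma was at 624 and 99.1 CPM against 25.7 and 43.9 (log2 fold change 3.39, adjusted p = 0.028), with leave-one-out values of 1.55 to 4.18, and its call ended without splenic library 1 or 2, at 3.05 (adjusted p = 0.11) and 3.83 (adjusted p = 0.076). Klrk1, the activating receptor NKG2D, was at 214 and 165 CPM against 29.9 and 34.1 (log2 fold change 2.58, adjusted p = 0.00052), and Klrb1b, a lectin-like receptor on no list, at 245 and 223 CPM against 1.75 and 3.30 (log2 fold change 6.56 ± 0.33 (SE), adjusted p = 0.00036). Ncr1, an activating receptor of NK cells, was at 11.1 and 8.34 CPM against 6.84 and 12.1 and was not called (log2 fold change 0.06, adjusted p = 0.89).

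Macrophage genes were mostly uncalled, with 2 of 17 higher and 1 lower (median 0.68). Which colonic library was left out changed these counts. Csf1r, the receptor for CSF1, was at 53.2 and 313 CPM against 591 and 666 (log2 fold change -1.77, adjusted p = 0.11), C1qa, a complement chain, at 17.1 and 195 CPM against 31.2 and 29.7 (log2 fold change 1.81, adjusted p = 0.19) and Mrc1, the mannose receptor, at 25.2 and 142 CPM against 38.6 and 39.4 (log2 fold change 1.11, adjusted p = 0.27). Colonic library 2 exceeded library 1 by more than 5-fold in each. The 2 colonic libraries thus fell on either side of the splenic level for C1qa and Mrc1, and a mean of the group describes neither library. The summed level of the list was 661 and 3967 CPM against 1779.8 and 1914 CPM.

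Among erythroid and platelet genes 6 of 9 were lower and 2 higher (median -4.52), or 1 higher without either splenic library. Hbb-bs and Hba-a1, globin genes with near-identical copies, were at 5.65 and 2.47 CPM against 199 and 456 (log2 fold change -6.28, adjusted p = 0.0015) and 3.60 and 1.85 CPM against 147 and 372 (log2 fold change -6.51, adjusted p = 0.0014). Without splenic library 2 their values were -5.57 and -5.70, and without colonic library 1 that of Hbb-bs was -7.01. Pf4, a platelet and macrophage chemokine, was at 3.04 and 19.4 CPM against 0.504 and 0.988 (log2 fold change 3.92, adjusted p = 0.024), and its call ended without splenic library 1 or 2, at 3.49 (adjusted p = 0.097) and 4.46 (adjusted p = 0.065), with a value of 2.05 (adjusted p = 0.032) without colonic library 2. In the mast cell and basophil list 1 of 5 tested genes was higher and 1 lower (median -1.40). Cpa3 was at 0.790 and 1.54 CPM against 0.372 and 1.35 (log2 fold change 0.44, adjusted p = 0.65) and Fcer1a, at 0.0395 and 0 and 0 and 0 CPM, was too low to be tested. Mcpt8, at 0 and 0.124 CPM against 1.36 and 1.89 (log2 fold change -4.90, adjusted p = 0.011), rested on 2 counts in the colonic libraries. Kit, the receptor also carried by some dendritic cells and innate lymphoid cells, was at 187 and 188 CPM against 163 and 136 (log2 fold change 0.34, adjusted p = 0.050), and its call ended without splenic library 2, colonic library 1 or colonic library 2, at 0.21 (adjusted p = 0.23), 0.37 (adjusted p = 0.069) and 0.33 (adjusted p = 0.087), while its sign turned with limma on log2(TPM + 1), at -0.02 (adjusted p = 0.89).

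**Figure D4:**
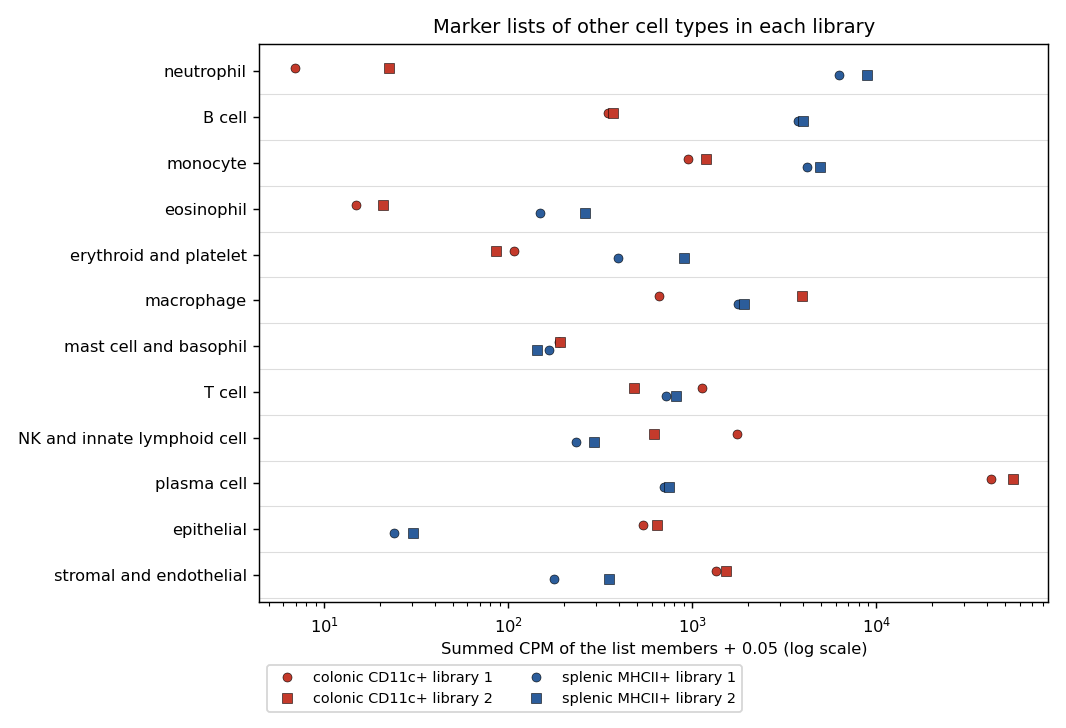
Summed CPM plus 0.05 (log axis) of marker lists of other cell types in each of the 4 libraries, red for colonic CD11c+ and blue for splenic MHCII+, circles for library 1 and squares for library 2. Neutrophil, B cell, monocyte and eosinophil sums lie higher in the splenic libraries, plasma cell, epithelial and stromal sums higher in the colonic ones, and the colonic libraries lie on either side of the splenic ones for macrophage and T cell genes.

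The 12 genes with the largest rise and at least 20 CPM were led by transcripts of liver plasma proteins. Gc, the vitamin D carrier, was at 26.4 and 24.2 CPM against 0 and 0, and Mup1, a major urinary protein with many near-identical copies, at 24.7 and 22.7 CPM against 0 and 0. With no counts in the splenic libraries, they were at least 336- and 316-fold higher. Alb, serum albumin, was at 242 and 229.9 CPM against 0 and 0.226 (log2 fold change 11.16, adjusted p = 0.00041), Apoa1 at 23.3 and 26.6 CPM against 0.110 and 0 (log2 fold change 8.59, adjusted p = 0.00057), Apob at 24.5 and 25.1 CPM against 0 and 0.141 (log2 fold change 8.55, adjusted p = 0.00080) and Ttr, transthyretin, at 22.04 and 20.2 CPM against 0.0438 and 0 (log2 fold change 9.54, adjusted p = 0.00035). Leave-one-out values ran from 10.01 to 15.75 for Alb, 7.79 to 12.32 for Apoa1, 7.42 to 12.50 for Apob and 8.79 to 12.09 for Ttr, set by the few counts in the splenic libraries. Ttr rested on 2 splenic counts, a ratio of 865 with a 95% counting interval of 239 to 7150.

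Within the colon, Alb, Gc, Mup1 and Apoa1 followed the library numbers. Alb was at 0.964 and 1.92 CPM in the colonic MHCII+ libraries, numbered 81 and 82, but at 295 and 152 CPM in the CD11b+CD11c+ libraries and 162 and 126 CPM in the CD11b+ libraries, which are numbered 96, 97, 99 and 100 next to the CD11c+ pair, at 95 and 98. Gc was at 0 in the 4 libraries numbered 81 to 84 and at 31.96 and 16.9 and 15.8 and 12.01 CPM in those numbered 96, 97, 99 and 100. In the fit of CD11c+ against colonic MHCII+ cells, the log2 difference was 7.41 (adjusted p = 0.00049) for Alb. Apob and Ttr followed them only in part. Apob was at 3.05 and 1.81 CPM in the colonic MHCII+ libraries, between the splenic and the CD11c+ levels, with a log2 difference of 3.32 (adjusted p = 0.0012) in the same fit. Ttr was at 12.002 and 8.63 CPM there, far above the splenic level, and its log2 difference between the 2 colonic groups was 1.03 (adjusted p = 0.019).

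**Figure D5:**
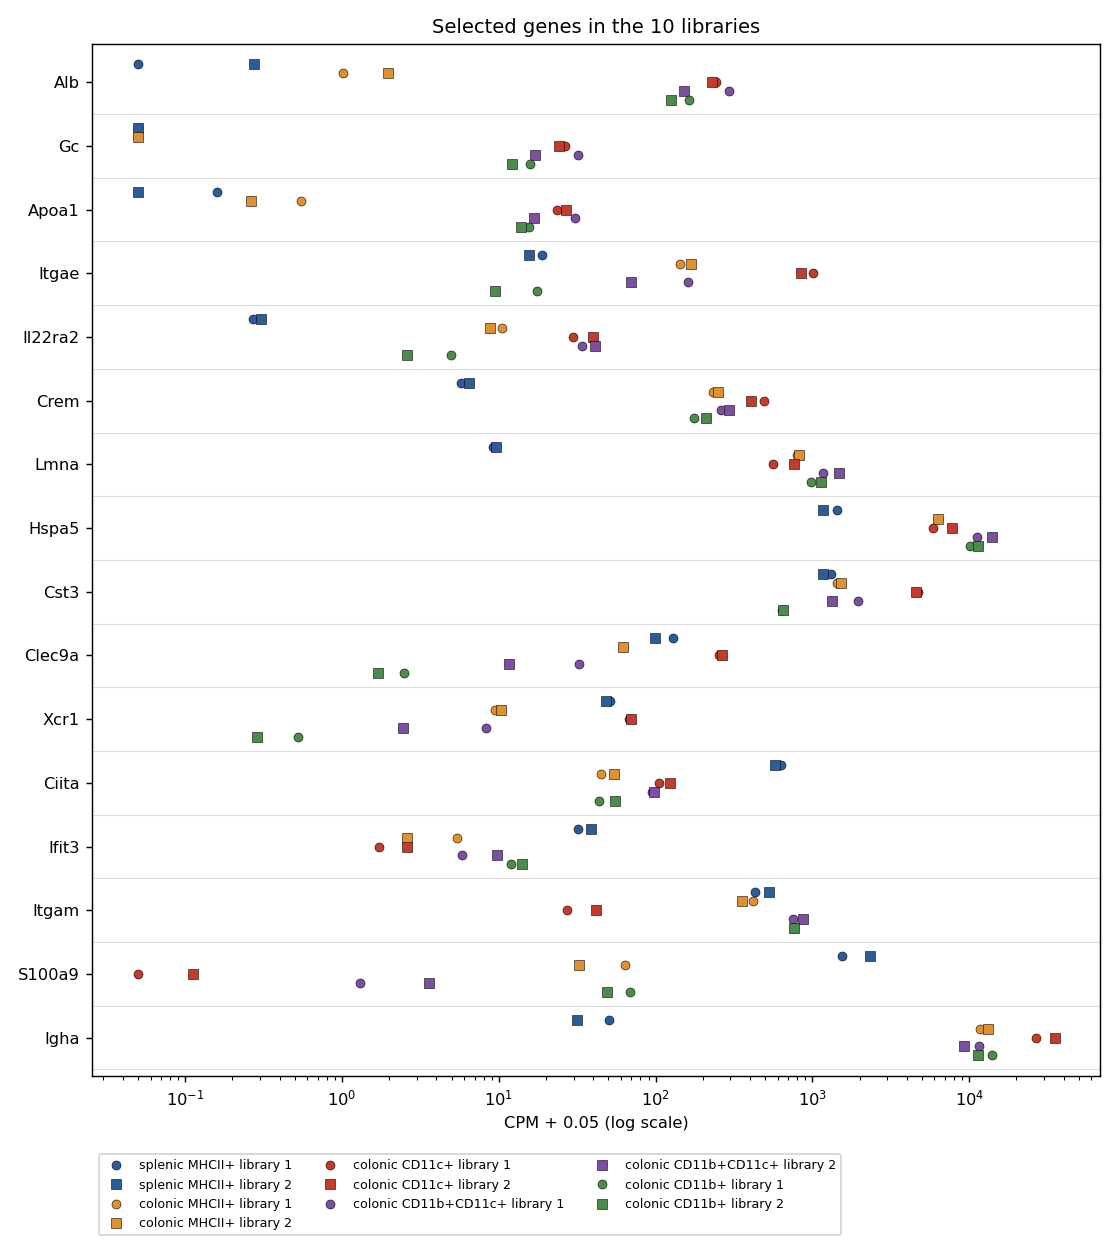
CPM plus 0.05 (log axis) of selected genes in all 10 libraries, coloured by group, circles for library 1 and squares for library 2. Alb, Gc and Apoa1 separate the 6 libraries numbered 95 to 100 from the 4 numbered 81 to 84, while Crem, Lmna, Hspa5 and Igha separate the 8 colonic libraries from the 2 splenic ones, and Clec9a, Xcr1 and Cst3 are highest in the CD11c+ pair.

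The other large rises included genes of tissue and of leukocytes. Mmp13, a collagenase, was at 11.8 and 214 CPM against 0.197 and 0.0564 (log2 fold change 9.68, adjusted p = 0.012). Its level rested on colonic library 2, with leave-one-out values of 6.43 to 10.85, and its call ended without splenic library 2, at 9.14 (adjusted p = 0.053). Muc4, a membrane mucin, was at 23.4 and 26.3 CPM against 0.0219 and 0.169 (log2 fold change 8.09, adjusted p = 0.00053), and Mptx1, a secreted pentraxin of the intestinal epithelium, at 74.3 and 84.9 CPM against 0.132 and 0.734 (log2 fold change 7.61, adjusted p = 0.00083). Dcstamp, a fusion protein of osteoclasts and dendritic cells, was at 44.4 and 57.3 CPM against 0.175 and 0.226 (log2 fold change 7.99 ± 0.25 (SE), adjusted p = 0.00021), and Ramp3, a partner of the calcitonin receptor family, at 94.6 and 102 CPM against 0.504 and 0.649 (log2 fold change 7.43 ± 0.17 (SE), adjusted p = 0.00020). Gzmc, granzyme C, was at 34.8 and 26.2 CPM against 0.0438 and 0.395 (log2 fold change 7.22, adjusted p = 0.0012). Leave-one-out values ran from 7.16 to 9.90 for Muc4, 6.76 to 9.21 for Mptx1 and 6.26 to 9.32 for Gzmc. Ramp3, at 117 and 119 CPM, and Dcstamp, at 25.9 and 29.1 CPM, were also far above the splenic level in colonic MHCII+ cells. Des, desmin of muscle, was at 2.17 and 10.01 CPM against 0.0438 and 0 (log2 fold change 7.74, adjusted p = 0.0064), with leave-one-out values of 6.30 to 10.27.

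The 12 largest falls were mostly of the neutrophil genes given above. The others were Chil1, a chitinase-like protein that was at least 291-fold lower, Fcnb, a ficolin of myeloid cells, at least 246-fold, Slc4a1, the anion exchanger of red cells, at least 165-fold, Chil3 and Retnlg. Retnlg, a resistin-like neutrophil gene, was at 0.0790 and 0.185 CPM against 106 and 204 (log2 fold change -10.26, adjusted p = 0.00044). For S100a9, Chil3 and Retnlg the leave-one-out values ran from -19.06 to -14.81, -14.40 to -12.24 and -10.86 to -9.64, set by the few counts in the colonic libraries.

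The fit of colonic CD11c+ against colonic MHCII+ cells stayed within the colon and crossed the library sets. It placed CD11c+ cells higher for the cDC1 genes Clec9a, at a log2 difference of 2.08 (adjusted p = 0.00050), Xcr1, at 2.80 (adjusted p = 0.00049), and Irf8, at 1.30 (adjusted p = 0.0014), and for Flt3, at 1.60 (adjusted p = 0.00086), and Cst3, at 1.64 (adjusted p = 0.00070). Itgax differed by 1.13 (adjusted p = 0.0027) and Itgam by -3.50 (adjusted p = 0.00072). Both encode sort markers, so the gates may set these differences in advance. Hspa5, by contrast, gave 0.10 (adjusted p = 0.68), Lmna -0.30 (adjusted p = 0.22) and Sqle 0.19 (adjusted p = 0.43), and these were not called. The colonic MHCII+ libraries shared no sample with the CD11c+ pair, and both colonic groups were set against the same 2 splenic libraries, so their changes from the spleen are not independent. For the colonic MHCII+ cells against the spleen, 60.3% of 15076 genes were called.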

How the data were processed

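Of a series of 10 libraries, 4 were compared, 2 of colonic CD11c+ and 2 of splenic MHCII+ cells. Estimated counts per transcript are the authors' deposited kallisto output, not normalized, and the deposited TPM values are kallisto's relative abundances, per the file headers. The deposited length and effective length columns, in bases, were used only as an offset. Tools named in the submitters' processing notes are kallisto 0.44.0 and sleuth, with build mm10, and the sources used here do not give the index, the strand setting or any filter. Lengths are coding lengths, since 88.95% of them divide by 3. Of 66760 transcripts, 65747 (98.48%) matched GENCODE release M21 and gave 22607 genes. Unmatched ones held 0.532 to 0.685% of the counts of the 4 libraries and were left out. kallisto divides reads among similar transcripts, so near-identical copies are uncertain.

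Estimated counts were summed per gene, rounded and tested with edgeR 4.0.16 in R 4.3.3 (filterByExpr, TMM, glmQLFit, glmQLFTest, group as the only term, 4 libraries, Benjamini-Hochberg over all genes tested). Every adjusted p comes from this test unless limma is named. CPM are on TMM sizes over the 10 libraries. A fold against a group with no counts uses a floor of 3 counts per library, and intervals and floors cover counting error only. Within groups, log2 CPM correlated at 0.982 and 0.994 over genes, which are not independent replicates. A chi-square of the counts gave 39.1 and 22.8 per gene, where sampling noise gives about 1, so no 2 libraries of a group agreed within sampling noise. The common biological coefficient of variation was 0.193. On simulated counts with 14359 genes, of which 200 were changed, the script recovered 29% of 2-fold and 87% of 4-fold changes. Far more genes were called in the data, so these shares do not give the power of this comparison. Alternatives used DESeq2 1.42.0 and limma 3.58.1.

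The comparison, the 42 gene lists (560 genes, 549 tested) and the rule for naming genes were chosen with earlier results of these data known. The rule took 8 gate genes, the 12 largest rises and 12 largest falls with at least 20 CPM and no overlap, the first 3 members of each list, and the 3 called members of each list with the largest change. Crem, Lmna, Klrb1b, Il1r2, Canx, Ifit1, Rsad2, Tlr12, Nod2, Cd83, Ifnar1, Ifngr1, Cd14, Naaa, H2-DMb1, H2-Oa, Zeb2, Runx3, Tnfsf4, S1pr1, Mgl2, Des, Gpr15 and Cadm1 were named after their values were seen. Some genes that the rule named are not reported here. Ifi30 of the class II list was not analysed here. The fit within libraries 81 to 84 and the scaling of TPM to equal medians were added after the data were seen.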

Additional observations from a re-analysis of the deposited data

Results flagged for a closer look

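Named genes were marked for a closer look where the change of colonic CD11c+ cells and that of colonic MHCII+ cells from the same splenic libraries differed by a test of the difference itself, the edgeR fit of CD11c+ minus colonic MHCII+ libraries. That fit compares gates within the colon but also crosses the library numbers (95 and 98 against 81 and 82), so gate and library set cannot be told apart in it.

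Among gate genes the log2 difference was 1.13 (adjusted p = 0.0027) for Itgax, -3.50 (adjusted p = 0.00072) for Itgam, 0.70 (adjusted p = 0.028) for H2-Ab1, 0.67 (adjusted p = 0.023) for H2-Eb1 and 1.20 (adjusted p = 0.0041) for Ciita. Those of Itgax and Itgam may be set in advance by the sort markers. Among the genes with the largest rises from the spleen it was 12.19 (adjusted p = 0.00052) for Gc, 12.10 (adjusted p = 0.00055) for Mup1, 7.41 (adjusted p = 0.00049) for Alb, 6.01 (adjusted p = 0.00059) for Apoa1, 3.32 (adjusted p = 0.0012) for Apob and 1.03 (adjusted p = 0.019) for Ttr, the liver transcripts. Gc and Mup1 had no counts in the colonic MHCII+ libraries, so their fitted differences depend on the prior count and are no bounds. It was -2.18 (adjusted p = 0.00093) for Muc4 and -2.72 (adjusted p = 0.00052) for Mptx1, which were higher in the colonic MHCII+ cells, and 0.89 (adjusted p = 0.014) for Dcstamp and 1.47 (adjusted p = 0.0067) for Gzmc. Among the neutrophil and monocyte genes with the largest falls the colonic MHCII+ libraries held more in each case: -12.39 (adjusted p = 0.00097) for S100a8, -12.18 (adjusted p = 0.0047) for Ngp, -10.63 (adjusted p = 0.0071) for Camp, -10.67 (adjusted p = 0.00072) for S100a9, -9.41 (adjusted p = 0.012) for Mmp8, -9.87 (adjusted p = 0.0026) for Chil1, -8.66 (adjusted p = 0.00050) for Chil3, -5.64 (adjusted p = 0.0018) for Ltf, -10.21 (adjusted p = 0.00043) for Retnlg and -6.05 (adjusted p = 0.0018) for Cxcr2. S100a8, Ngp, Camp, Mmp8 and Chil1 had no counts in the CD11c+ libraries, so these fitted differences are likewise no bounds.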

How the results depend on the processing

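The 8027 calls became 4605 when a change had to exceed 1.5-fold (glmTreat), with 2534 higher and 2071 lower in place of 4061 and 3966. Genes higher numbered 2464 with limma on log2(TPM + 1) and 2566 on log2(TPM + 0.1), and genes lower 2542 with limma on TPM scaled to equal medians. Without 1 library in turn, 2545 to 3761 genes were lower. In the fit of CD11c+ against colonic MHCII+ cells, 4471 calls became 2245 against 1.5-fold and 2558 to 4095 without 1 library in turn. No paired analysis was possible because both splenic titles carry the same replicate number. In the fit of CD11c+ against colonic MHCII+ cells a replicate block gave 3242 calls, and same-numbered libraries did not deviate together (correlation -0.039). Of 231 named genes tested, 197 were called, 158 of them under every alternative in the same direction, and for 3 the direction turned under an alternative (Zbtb46, Tap1 and Kit). Except for these 3, the log2 fold changes that turned sign belonged to genes that were not called. With limma on log2(TPM + 1), TPM scaled to equal medians, Flt3 0.069, Zbtb46 0.10, Hes1 0.031 and Nfkbia 0.092. With limma on log2(TPM + 1), Irf8 -0.30, Tap1 -0.021, Apoe -0.070, Abca1 -0.15, Hk2 -0.17, Mki67 -0.091, Top2a -0.10, Cdk1 -0.010, Ly6c2 -0.39, Kit -0.020, Cd3d -0.29, Lck -0.20 and Ncr1 -0.24. With limma on log2(TPM + 0.1), Irf8 -0.30, Tap1 -0.021, Clec4n -0.0093, Apoe -0.072, Abca1 -0.29, Hk2 -0.18, Mki67 -0.095, Top2a -0.11, Cdk1 -0.011, Ly6c2 -0.39, Kit -0.021, Cd3d -0.30, Lck -0.21 and Ncr1 -0.27. With DESeq2 size factors (RLE) in edgeR, Nfkbia 0.034. With at least 1 CPM in 2 libraries, Nfkbia 0.018. With DESeq2, Nfkbia 0.024. With immunoglobulin genes left out, Nfkbia 0.013. With no count filter, Ly6c2 -0.015. With effective length offset, Ly6c2 -0.064. With all 10 libraries in the fit, Ly6c2 -0.010. Without 1 library in turn, the values ran over Flt3 -0.084 to 0.022, Cd8a -1.59 to 0.22, Tcf4 -0.36 to 0.0098, Irf8 -0.045 to 0.18, Csf2ra -0.39 to 0.0093, H2-K1 -0.24 to 0.023, Clec4n -1.41 to 1.36, Hes1 -0.24 to 0.11, Nfkbia -0.28 to 0.24, Ctsb -0.96 to 0.070, Apoe -1.68 to 1.86, Abca1 -1.27 to 1.38, Hk2 -0.028 to 0.43, Mrc1 -0.62 to 1.90, C1qa -0.83 to 2.72, Ly6c2 -0.21 to 0.21, Cpa3 -0.23 to 1.62, Cd3e -0.54 to 1.47, Cd3d -0.82 to 0.97, Lck -0.51 to 0.84 and Ncr1 -0.31 to 0.53. The cause of these moves was not tested. On simulated counts with 200 changed genes, 29% of 2-fold changes were recovered. In the data 54.9% of genes were called, which eases the adjusted p cutoff. That recovered share therefore does not carry over to this comparison, where smaller changes were also called.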
